A study of Penicillium oxalicum with 6 samples.

Results

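Genes towards the chromosome ends, namely the 15 outermost expressed genes at each end of chromosomes I to VIII of Penicillium oxalicum, were compared between a POX_a00954 mutant and the strain PoxKu70. Gene IDs carry a letter for the chromosome and a running number. IDs of each letter were put in number order, those averaging under 1 FPKM across the 6 libraries were dropped, and the first 15 and the last 15 that remained were taken. FPKM is a read level per transcript length and per library total. This gave 240 genes at 16 ends, of 9822 gene IDs in all, 8448 of which averaged 1 FPKM or more and were tested. The end with the lowest numbers is called left and the end with the highest is called right, without reference to the orientation of the chromosomes. Whether the first and last IDs lie next to a telomere is not known.

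Each strain had 3 mRNA sequencing libraries, of mycelium from spores that had formed on plates for 4 days at 28 °C and then spent 24 h in glucose medium and 24 h with raw starch as sole carbon source. The mutant's label names POX_a00954, a transcription factor gene according to the series title, but not the allele. PoxKu70 has the genotype wild type in the labels. Its name refers to Ku70, which takes part in DNA end joining and whose loss makes gene replacement easier in many fungi. The labels do not say whether either strain lacks that gene, whether the strains share it, whether a strain is 1 clone, or whether the 3 libraries came from separate cultures. The p-values below therefore measure the spread between these libraries, which may be technical.

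The ends of fungal chromosomes are known as a distinct compartment. In many filamentous fungi they are rich in repeats, are packed in part into silent chromatin, and hold clusters of adjoining genes for secondary metabolism, transport and secreted enzymes, which are often switched on together. In budding yeast, Ku proteins also bind at telomeres. The files and the reference table pair these IDs with no product names or symbols, so no function is given to any of the genes below, and no sequence was at hand to print.

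The FPKM sums of the libraries were 1338218 to 1409899 in the mutant and 1025654 to 1076733 in PoxKu70. The number of reads is not known from FPKM values, but steps between low values put the relative depth at 1.40 and 1.15 in mutant replicates 2 and 3 and at 1.53 to 1.89 in PoxKu70, with mutant replicate 1 as 1, so low values rest on fewer reads in the mutant. POX_a00954 itself had 283, 275 and 441 FPKM in the 3 mutant libraries, against 716, 679 and 842 FPKM in the 3 of PoxKu70 (log2 change -1.19, SE 0.20; limma, adjusted p = 0.0014), lower in the mutant but not absent. No library stood apart from its strain: Pearson's r of log2(FPKM + 1) across the tested genes was at least 0.965 within a strain and at most 0.808 between strains.

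The 240 end genes together came to 38908.3 to 41021.3 FPKM in mutant libraries and 38242 to 41958.5 FPKM in PoxKu70 libraries. These ranges overlapped, so the summed level of the end genes did not separate the strains. As a share of the library total, the end genes held 2.90% to 2.91% in the mutant and 3.55% to 3.93% in PoxKu70. The totals that these shares were taken from were higher in the mutant, as given above. By limma on log2(FPKM + 1) with Benjamini-Hochberg adjustment over all 8448 genes, 162 of the 240 (67.5%) changed at an adjusted p of at most 0.05, where the share of all tested genes was 60.5%. Of these, 67 rose and 95 fell, that is 27.9% and 39.6% of the end genes, beside 30.5% and 30% of all tested genes. At the same adjusted p and a log2 change of at least 1, 117 end genes (48.8%) changed, beside 29.6% of all tested genes. Here 49 rose (20.4%, beside 15.5%) and 68 fell (28.3%, beside 14.1%). Rises of at least 4 log2 units numbered 8 and falls of that size 11, where 1.37% and 1.05% of all tested genes passed. The libraries of the strains did not overlap for 169 end genes (70.4%), beside 68.1% of all tested genes. The median log2 change was -0.19 over the end genes and -0.0089 over all tested genes, and the median of its size without sign was 0.99 over the end genes and 0.63 over all tested genes. Less RNA of a gene per cell and fewer cells that express it cannot be told apart in such bulk samples.

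The share of large changes is a description of these genes and was given no p-value, since the ends were chosen with earlier results of these data known. The balance of rises and falls depended on scaling. When all libraries were brought to equal sums (TPM), all tested genes shifted by -0.35 at the median, and the calls over the end genes became 51 rises and 121 falls, so that rises made up 29.7% of calls with TPM and 41.4% without. Leaving POX_a00166 and the 21 IDs with the letter u, which have no chromosome, out of that sum (the second TPM setting) gave 55 rises and 112 falls with a shift of -0.25. Relative to the median of all genes, the end genes' median lay at -0.18 without rescaling, -0.16 with TPM and -0.16 with the second TPM setting.

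**Figure D1:**
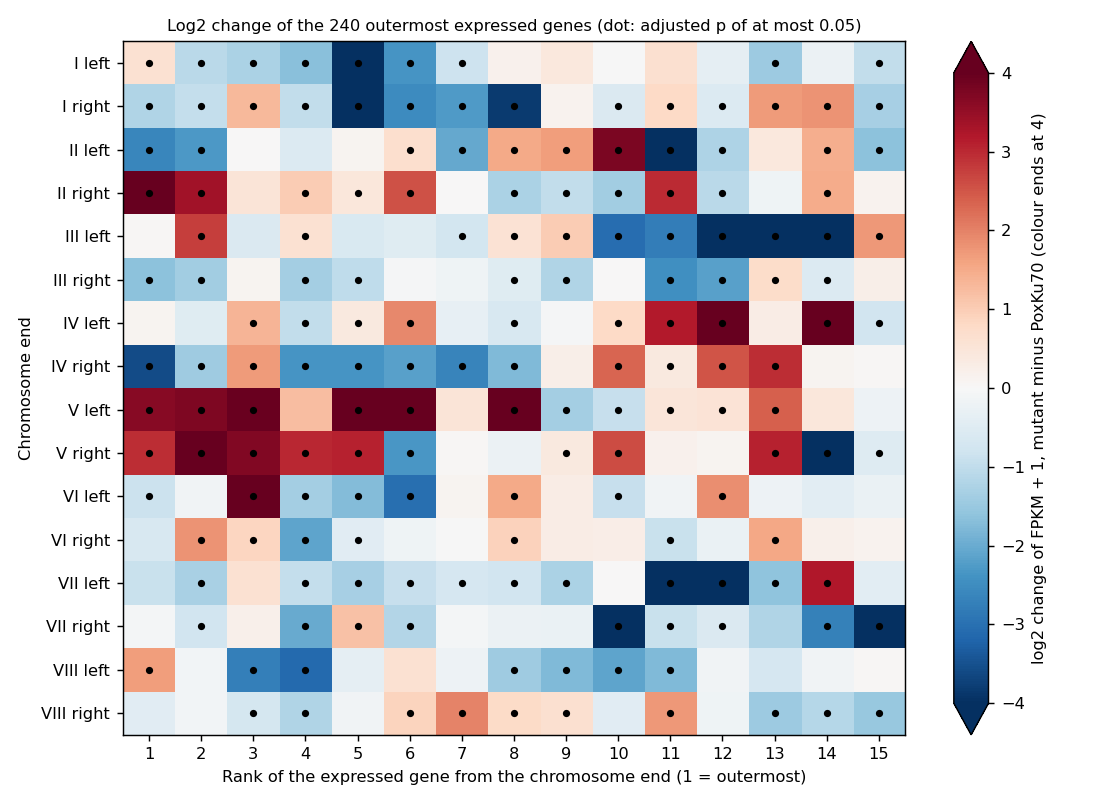
Log2 change of FPKM + 1, mutant minus PoxKu70, for the 15 outermost expressed genes (columns, outermost first) of the 16 chromosome ends (rows); the colour scale ends at 4 log2 units and a dot marks an adjusted p of at most 0.05 in limma. Each of the 16 ends holds both rises and falls, V left and V right hold stretches of deep red, and stretches of blue lie in I left, I right and III left.

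Large changes became less frequent with distance from the ends. By at least 1 log2 unit, 48.8% of the genes ranked 1 to 15 from the nearest end changed, 39.6% of the 240 genes ranked 16 to 30, 32.1% of the 480 ranked 31 to 60, and 28.5% of the 7477 ranked over 60. Falls of that size made up 28.3%, 21.3%, 17.3% and 13.2% in this order, and rises 20.4%, 18.3%, 14.8% and 15.3%. Without the size limit the shares were closer together, at 67.5%, 65.4%, 58.3% and 60.2%. Expression level went along with rank, since the median of the mean FPKM was 19.9, 27.1, 30.9 and 32.5. Compared within levels, 29 of 80 end genes with a mean under 10 FPKM changed by at least 1 log2 unit (36.3%, beside 28.5% of all tested genes at that level), 61 of 115 between 10 and 100 FPKM (53.0%, beside 26.8%), and 27 of 45 at 100 FPKM or more (60%, beside 38.7%). The replicate spread of end genes was also wider, with a median SD within strains of 0.26 on the log2(FPKM + 1) scale, against 0.20 over all tested genes.

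**Figure D2:**
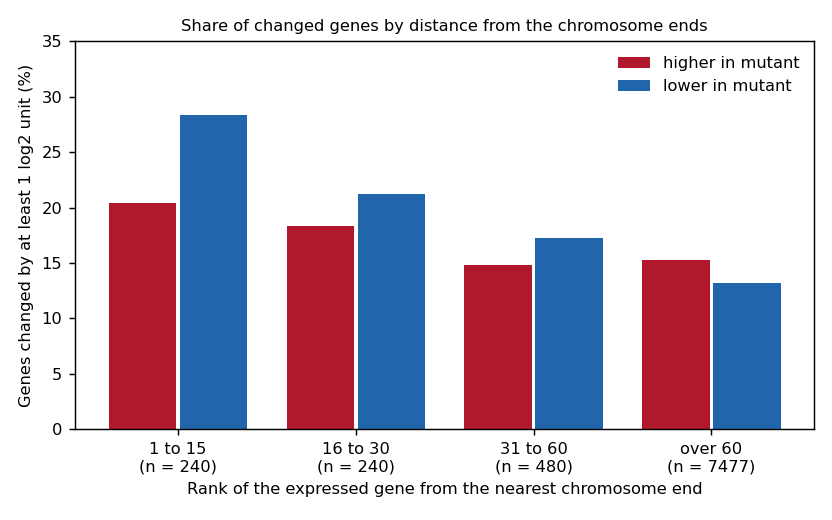
Percentage of tested genes that changed by at least 1 log2 unit at an adjusted p of at most 0.05, higher in the mutant (left bar) and lower in the mutant (right bar), by rank of the expressed gene from the nearest chromosome end. Falls go from 28.3% of the 15 outermost genes down to 13.2% of genes ranked over 60, and rises from 20.4% to 15.3%.

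Silent IDs were interspersed among the end genes. The 16 stretches from the first ID of an end to its 15th expressed gene spanned 339 IDs, of which 99 (29.2%) had a mean under 1 FPKM and 36 (10.6%) were listed at 0 in all 6 libraries. Elsewhere on the chromosomes 1265 of 9462 IDs (13.4%) were under 1 FPKM and 566 (5.98%) were listed at 0. VI left took 45 IDs to reach 15 expressed genes, 30 of them under 1 FPKM and 11 listed at 0. VIII left took 36 IDs, 21 of them under 1 FPKM and 11 listed at 0. The other 14 ends took 16 to 24 IDs, with 1 to 9 under 1 FPKM and 0 to 3 listed at 0. The pooled shares of silent IDs thus rest largely on VI left and VIII left. At the threshold itself, POX_h09901, POX_c04784 and POX_f07360 were just inside with means of 1.02, 1.06 and 1.10 FPKM, and POX_f07350, POX_g09361 and POX_g09377 were just outside with 0.95, 0.90 and 0.83 FPKM. Among the 240 genes, 17 averaged under 1 FPKM in the mutant and 13 in PoxKu70, so these 30 were kept through the other strain alone. Their strain means had to lie on either side of 1 FPKM, by however little. POX_h09901, with means of 1.05 FPKM in the mutant and 0.99 FPKM in PoxKu70, did not change (limma, adjusted p = 0.77). Most of the 30 did change. Among them were POX_g08542 and POX_c03490, kept through PoxKu70, and POX_f07338, POX_b03476 and POX_e07328 to POX_e07331, kept through the mutant. The counts of rises and falls include these genes and were not repeated without them.

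**Figure D3:**
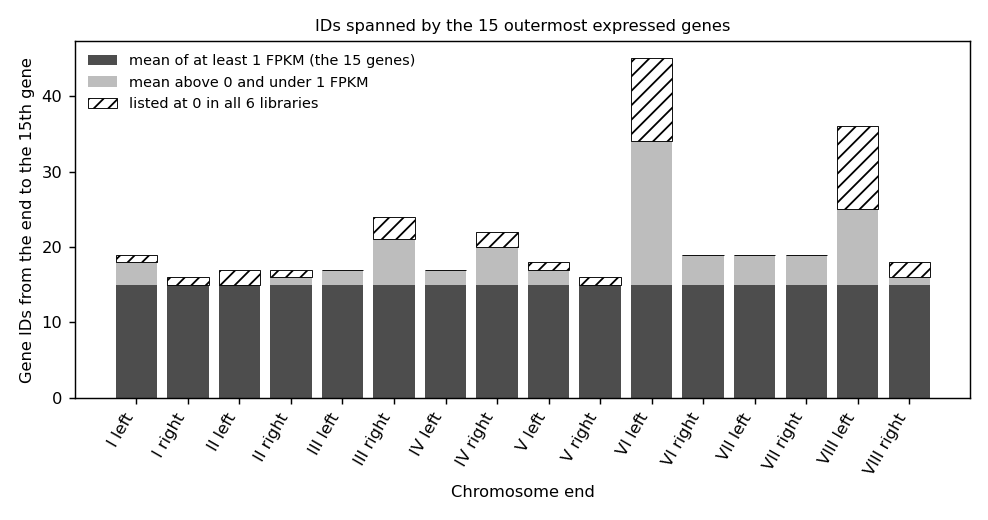
Number of gene IDs from each chromosome end to its 15th expressed gene, split into the 15 genes averaging 1 FPKM or more, IDs above 0 but under 1 FPKM, and IDs listed at 0 in all 6 libraries. VI left and VIII left stand out with 45 and 36 IDs, against 16 to 24 at the other ends.

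The ends differed from each other in direction. Between 7 (VI right and VIII left) and 14 (I right) of the 15 genes changed, where the share of all tested genes was 60.5%. Falls outnumbered rises at 10 ends, rises outnumbered falls at 5, and VIII right had 5 of each. This balance also depended on scaling. Ends with more falls numbered 13 with TPM scaling, 11 with the second TPM setting and 9 to 11 in the other alternative fits. Summed over its 15 genes, the mutant mean was higher at 6 ends (5 where VI left turned) and lower at 10, from 22.2-fold higher at V left to 13.6-fold lower at II left, and the libraries of the strains did not overlap at 13 of the 16 ends. The most abundant gene of an end made up between 18.2% (II right, PoxKu70) and 96.1% (VII right, mutant) of its sum, so many sums follow 1 gene. Genes are called adjoining where no other expressed gene lies between them. Values of every library are given in the order of replicates 1 to 3. The genes described below that changed had no overlap between the strains, except POX_h09407 and POX_h09904.

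**Figure D4:**
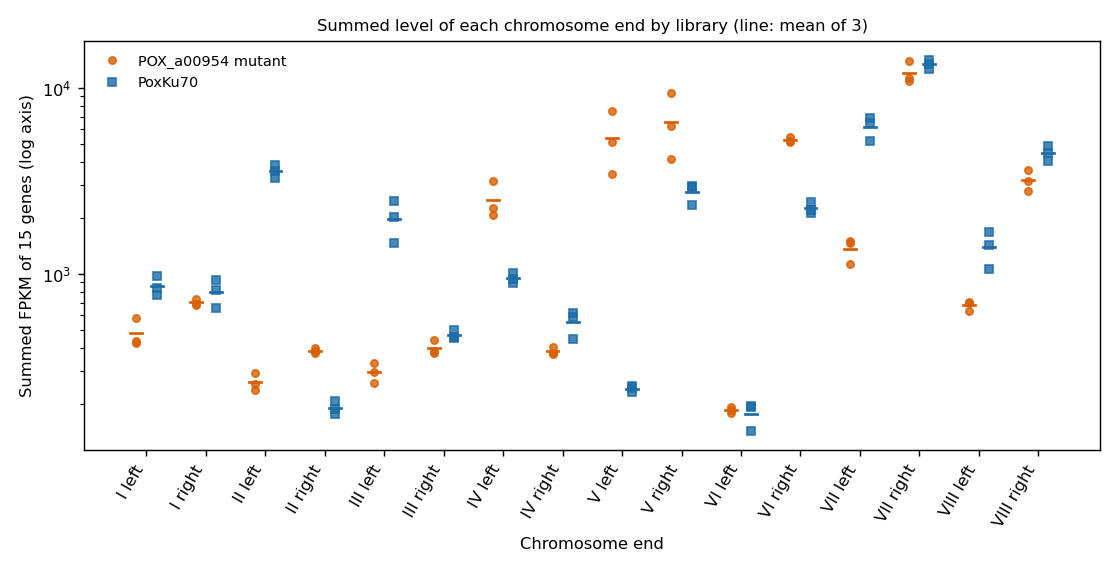
Summed FPKM of the 15 outermost expressed genes of each chromosome end in every library, on a log axis, mutant (circles) left of PoxKu70 (squares), with the mean of 3 libraries as a line. The widest gaps are at V left, where the mutant is higher, and at II left and III left, where it is lower; at I right, VI left and VII right the libraries overlap.

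The largest fold by which a summed end was higher in the mutant was at V left, from POX_e06153 to POX_e06170. The sum of all 15 genes came to 5355 ± 2034 FPKM in the mutant, against 242 ± 8.41 FPKM in PoxKu70 (SD, n = 3 each), 22.2-fold higher in the mutant and without overlap between the strains. Here 9 genes rose and 2 fell. POX_e06160, the most abundant, was at 1595, 2746 and 3805 FPKM in the 3 mutant libraries, against 15.3, 18.2 and 18.8 FPKM in the 3 of PoxKu70 (log2 change 7.12, SE 0.29; limma, adjusted p = 6.9e-07). It made up 50.7% of the sum in the mutant, and without it and POX_e06166, the most abundant gene of this end in PoxKu70, the mutant sum was still 14.7 times that of PoxKu70. The outermost gene, POX_e06153, was at 60.9, 87.1 and 174 FPKM in the mutant and at 6.95, 7.29 and 6.25 FPKM in PoxKu70 (log2 change 3.65, SE 0.33; limma, adjusted p = 5.3e-05). Together with POX_e06154, POX_e06156, POX_e06158 and POX_e06162, it stood between 60.9 and 947 FPKM in mutant libraries, against 6.25 to 55.0 FPKM in PoxKu70 libraries, with log2 changes of 3.65 to 5.28. POX_e06157 and POX_e06161, of lower level, lay between them and did not pass the threshold. POX_e06163, on the inner side of POX_e06162, fell, at 1, 1.13 and 1.71 FPKM in the 3 mutant libraries, against 4.8, 5 and 4.75 FPKM in the 3 of PoxKu70 (log2 change -1.37, SE 0.21; limma, adjusted p = 0.00081). Among the mutant libraries, replicate 3 was the highest and replicate 1 the lowest in POX_e06160 and in the 5 genes from POX_e06153 to POX_e06162 named with it.

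The other end of the same chromosome, V right (POX_e07316 to POX_e07331), also had more rises than falls, 8 against 3. The summed level of the end was 6551 ± 2621 FPKM in the mutant, against 2745 ± 351 FPKM in PoxKu70 (SD, n = 3 each), 2.39-fold higher in the mutant and without overlap between the strains. POX_e07322 carried 86.7% of the mutant sum, at 8430.1, 5297 and 3306 FPKM in the mutant and at 1187, 968 and 564 FPKM in PoxKu70 (log2 change 2.61, SE 0.38; limma, adjusted p = 0.00059). The 5 outermost genes of this end, POX_e07327 to POX_e07331, adjoin each other and all rose, with log2 changes of 2.94 to 4.70. Their sum was 71.0, 101 and 159 FPKM in mutant replicates 1 to 3, against 5.59, 5.17 and 4.64 FPKM in PoxKu70 replicates 1 to 3, a 21.5-fold higher mean. In PoxKu70, all of them except POX_e07327 stayed under 1 FPKM in each library, so those were kept through the mutant alone. The outermost, POX_e07331, was at 6.13, 9.37 and 16.2 FPKM in the 3 mutant libraries, against 0.36, 0.45 and 0.42 FPKM in the 3 of PoxKu70 (log2 change 2.94, SE 0.32; limma, adjusted p = 0.00013). The largest change at V right went the other way: POX_e07317, the most abundant gene there in PoxKu70, was at 20.6, 12.9 and 15.9 FPKM in the mutant and at 1413, 1040.3 and 2004 FPKM in PoxKu70 (log2 change -6.38, SE 0.26; limma, adjusted p = 6.9e-07). POX_e07318 beside it rose, to 575, 567 and 394 FPKM in the mutant libraries, against 46.1, 73.4 and 58.2 FPKM in those of PoxKu70. At this end, both the most abundant gene of the mutant and that of PoxKu70 changed, in opposite directions.

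Rises also prevailed at IV left and II right. At IV left (POX_d04787 to POX_d04803), 7 genes rose and 3 fell. Together the 15 genes stood at 2495 ± 573 FPKM in the mutant, against 946 ± 61 FPKM in PoxKu70 (SD, n = 3 each), 2.64-fold higher in the mutant and without overlap between the strains. POX_d04794 was the most abundant, at 964, 768 and 617 FPKM in the 3 mutant libraries, against 208, 233 and 176 FPKM in the 3 of PoxKu70 (log2 change 1.91, SE 0.19; limma, adjusted p = 8.3e-05). POX_d04802 changed most, at 1155, 577 and 343 FPKM in the mutant and at 38.6, 52.8 and 22.8 FPKM in PoxKu70 (log2 change 4.05, SE 0.45; limma, adjusted p = 0.00015), and its mutant libraries differed among themselves by more than 3-fold. POX_d04799 was listed at 0 in PoxKu70 replicates 1 and 3 and at 13.2 FPKM in replicate 2, against 16.5, 19.9 and 28.1 FPKM in the mutant libraries, so its rise rests on uneven values. The outermost gene, POX_d04787, was at 2.93, 2.29 and 2.52 FPKM in the 3 mutant libraries, against 3.13, 1.99 and 2.03 FPKM in the 3 of PoxKu70 (log2 change 0.09, SE 0.23; limma, adjusted p = 0.74), and the strains overlapped. The count of 10 changed genes at IV left was 6 without mutant replicate 2, without PoxKu70 replicate 1 or without PoxKu70 replicate 3.

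At II right (POX_b03460 to POX_b03476), 7 genes rose and 4 fell, and no gene dominated. Summed, the 15 genes reached 385 ± 12.2 FPKM in the mutant, against 190.5 ± 15.8 FPKM in PoxKu70 (SD, n = 3 each), 2.02-fold higher in the mutant and without overlap between the strains. Its outermost gene, POX_b03476, also had its largest change, at 21.5, 23.3 and 40.4 FPKM in the mutant and at 0.5, 0.57 and 0.59 FPKM in PoxKu70 (log2 change 4.19, SE 0.25; limma, adjusted p = 5.3e-06). All PoxKu70 libraries were under 1 FPKM there. POX_b03475 next to it was at 83.4, 61.9 and 42.3 FPKM in the mutant and 3.23, 5.3 and 6.75 FPKM in PoxKu70. POX_b03461 had the highest mean of this end over all libraries, at 60.3, 69.1 and 77.3 FPKM in the 3 mutant libraries, against 21.5, 24.6 and 26.4 FPKM in the 3 of PoxKu70 (log2 change 1.47, SE 0.14; limma, adjusted p = 7.5e-05). The 4 falls at II right had log2 changes from -1.39 to -0.99, and 3 of these genes, POX_b03465 to POX_b03467, adjoin each other.

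VI right (POX_f08509 to POX_f08527) had the fewest large changes, with 4 rises, 3 falls and 3 changes of at least 1 log2 unit. The sum of all 15 genes came to 5219.6 ± 177 FPKM in the mutant, against 2247 ± 161 FPKM in PoxKu70 (SD, n = 3 each), 2.32-fold higher in the mutant and without overlap between the strains. This gap came largely from POX_f08511, at 3684, 4339 and 4069 FPKM in the mutant and at 1373, 1545 and 1238 FPKM in PoxKu70 (log2 change 1.54, SE 0.14; limma, adjusted p = 5.4e-05), which made up 77.2% of the mutant sum and 61.7% of the PoxKu70 sum. Without it the mutant sum was 1.38 times that of PoxKu70. The largest change was the fall of POX_f08520, at 6.99, 5.87 and 7.06 FPKM in the 3 mutant libraries, against 31.6, 27.4 and 38.6 FPKM in the 3 of PoxKu70 (log2 change -2.12, SE 0.16; limma, adjusted p = 2.1e-05). The outermost gene, POX_f08527, was at 2.04, 2.77 and 2.39 FPKM in the mutant and 5.23, 2.64 and 5.36 FPKM in PoxKu70 with overlap, and did not pass the threshold (log2 change -0.63, SE 0.26; limma, adjusted p = 0.069). It passed without PoxKu70 replicate 2 (log2 change -0.89; limma, adjusted p = 0.0092), with TPM scaling (log2 change -0.92; limma, adjusted p = 0.019), with the second TPM setting (log2 change -0.83; limma, adjusted p = 0.029) and in eBayes without trend (limma, adjusted p = 0.049).

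The largest fold by which a summed end was lower in the mutant was at II left, where 1 gene carried most of it. At this end (POX_b01935 to POX_b01951), 5 genes rose and 6 fell. The summed level of the end was 263 ± 28.7 FPKM in the mutant, against 3561 ± 296 FPKM in PoxKu70 (SD, n = 3 each), 13.6-fold lower in the mutant and without overlap between the strains. POX_b01946 made up 88.7% of the PoxKu70 sum, at 17.2, 14.9 and 14.6 FPKM in the mutant and at 3247, 2744 and 3488 FPKM in PoxKu70 (log2 change -7.57, SE 0.14; limma, adjusted p = 2.2e-08). Without it and POX_b01940, the most abundant gene of this end in the mutant, the mutant sum was 0.45 times that of PoxKu70. POX_b01943 to POX_b01945, which adjoin it on the outer side, went the other way: POX_b01945 was at 17.2, 17 and 23.7 FPKM in the mutant and 1.04, 0 and 0.6 FPKM in PoxKu70, with a log2 change of 3.76. The outermost gene, POX_b01935, was at 18.1, 11.2 and 6.44 FPKM in the 3 mutant libraries, against 68.5, 160.2 and 34.9 FPKM in the 3 of PoxKu70 (log2 change -2.62, SE 0.54; limma, adjusted p = 0.0034). Its PoxKu70 libraries differed among themselves by more than 4-fold, with replicate 2 the highest, and POX_b01936 beside it had the same order of libraries in both strains, at 12, 8.26 and 3.38 FPKM in the mutant and 39.3, 111 and 13.2 FPKM in PoxKu70.

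At III left (POX_c03478 to POX_c03493), 5 genes rose, 6 fell, and 5 of the falls adjoined each other. Together the 15 genes stood at 296 ± 35.3 FPKM in the mutant, against 1982 ± 502 FPKM in PoxKu70 (SD, n = 3 each), 6.71-fold lower in the mutant and without overlap between the strains. The run from POX_c03488 to POX_c03492 summed to 29.9, 19.8 and 18.1 FPKM in mutant replicates 1 to 3, against 1812, 1273 and 2197 FPKM in PoxKu70 replicates 1 to 3, a 78.0-fold lower mean in the mutant. Each of its members fell by at least 2.75 log2 units. POX_c03490 changed most, at 0.85, 1.27 and 0.5 FPKM in the mutant and at 696, 396 and 808 FPKM in PoxKu70 (log2 change -8.36, SE 0.28; limma, adjusted p = 2.5e-07). POX_c03492, the most abundant, was at 5.07, 4.75 and 4.62 FPKM in the 3 mutant libraries, against 884, 723 and 1155 FPKM in the 3 of PoxKu70 (log2 change -7.28, SE 0.18; limma, adjusted p = 6.6e-08). Genes on either side of the run rose instead: POX_c03487 was at 47.9, 67 and 94.6 FPKM in the mutant and 34, 30.6 and 33.8 FPKM in PoxKu70, and POX_c03493 was at 70.8, 71.9 and 58.3 FPKM in the mutant and 21.8, 19.8 and 16.7 FPKM in PoxKu70, with log2 changes of 1.01 and 1.73. The run was the only one of the 9 described here that held in all 17 alternative fits. The outermost gene, POX_c03478, did not pass the threshold and overlapped, at 1.41, 1.5 and 1.83 FPKM in the mutant and 1.28, 1.27 and 1.96 FPKM in PoxKu70.

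At VII left (POX_g08528 to POX_g08546), a pair of abundant transcripts fell to low levels. Here 10 genes fell and 1 rose. Summed, the 15 genes reached 1359.7 ± 205 FPKM in the mutant, against 6175 ± 886 FPKM in PoxKu70 (SD, n = 3 each), 4.54-fold lower in the mutant and without overlap between the strains. Most of the PoxKu70 sum was that of POX_g08542 and POX_g08543, with means of 2558 and 2505 FPKM there. The 4 genes that did not pass the threshold summed to 1080 ± 195 FPKM in the mutant and 887 ± 90.3 FPKM in PoxKu70, with overlap. POX_g08542 had the largest change of all 240 genes, at 0.51, 0.6 and 0.49 FPKM in the mutant and at 2857, 1959 and 2858 FPKM in PoxKu70 (log2 change -10.68, SE 0.17; limma, adjusted p = 9.9e-09). Its neighbour POX_g08543 was at 23.8, 22.8 and 30.9 FPKM in the 3 mutant libraries, against 2629, 2058 and 2828 FPKM in the 3 of PoxKu70 (log2 change -6.54, SE 0.17; limma, adjusted p = 8.1e-08). The gene on the other side, POX_g08541, did not pass the threshold and overlapped, at 544, 575 and 489.6 FPKM in the mutant and 425, 520.2 and 659.5 FPKM in PoxKu70, and POX_g08545 rose to 161, 197 and 140.5 FPKM in the mutant, against 16.7, 17.1 and 17 FPKM in PoxKu70. The 6 adjoining genes from POX_g08535 to POX_g08540 all fell, though only by 0.66 to 1.33 log2 units. Their sum was 70.7, 59.0 and 75.1 FPKM in the mutant libraries, against 143, 136 and 170.2 FPKM in the PoxKu70 libraries. The outermost gene, POX_g08528, was at 0.5, 0.35 and 2.59 FPKM in the mutant and at 3.61, 2.47 and 1.94 FPKM in PoxKu70 (log2 change -0.90, SE 0.40; limma, adjusted p = 0.086). The strains overlapped, and without mutant replicate 3 it passed the threshold (log2 change -1.34; limma, adjusted p = 0.0051), as it did with TPM scaling and the second TPM setting (log2 changes -1.13 and -1.06; limma, adjusted p of 0.034 and 0.047).

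**Figure D5:**
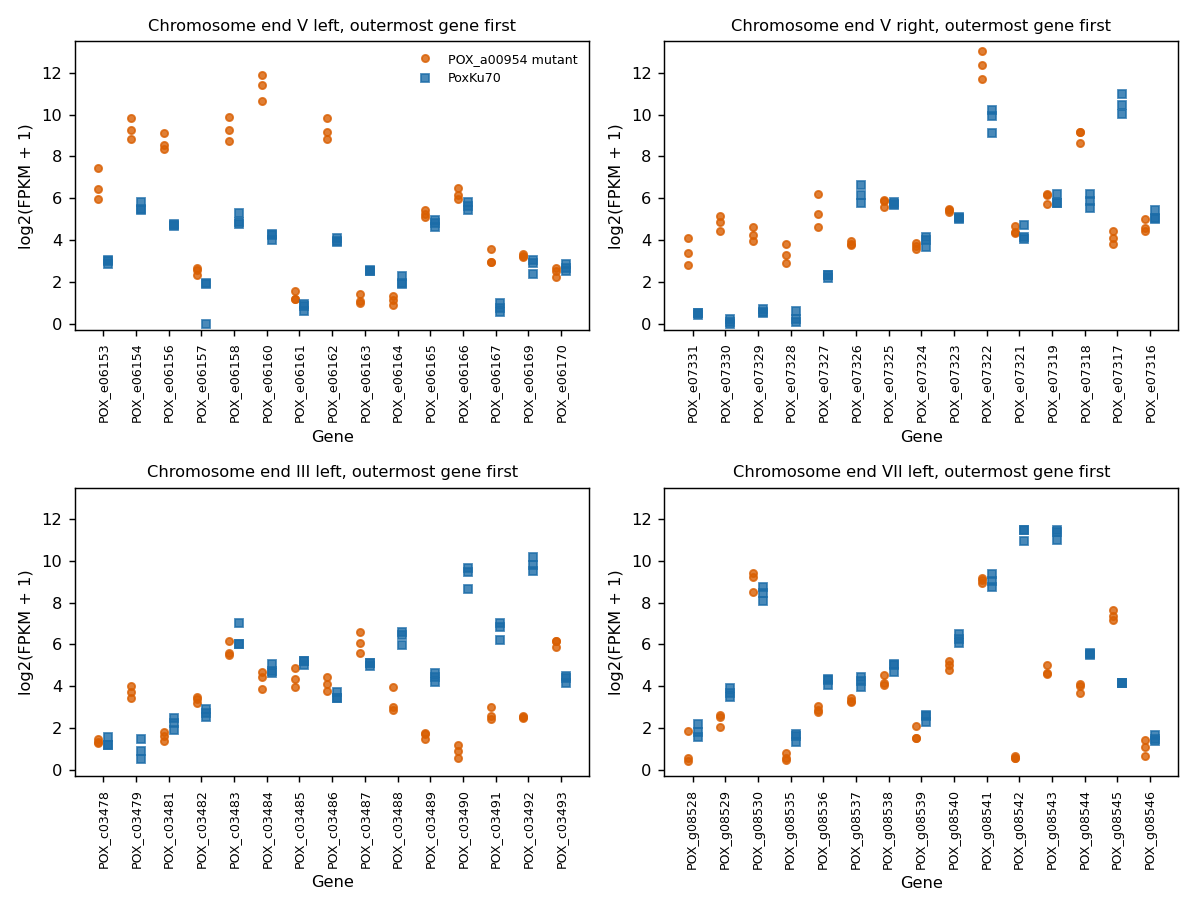
Log2(FPKM + 1) of each of the 15 outermost expressed genes at V left, V right, III left and VII left, outermost gene first, with 3 mutant libraries (circles) left of 3 PoxKu70 libraries (squares). Adjoining genes lie high in the mutant at the outer part of V left and V right, and adjoining genes lie low in the mutant from POX_c03488 to POX_c03492 and at POX_g08542 and POX_g08543.

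VII right (POX_g09359 to POX_g09376) had the most abundant of the 240 genes at its tip and falls behind it. POX_g09376 was at 10412, 10795 and 13416 FPKM in the 3 mutant libraries, against 11277, 12177 and 12752 FPKM in the 3 of PoxKu70 (log2 change -0.07, SE 0.15; limma, adjusted p = 0.7), with overlapping libraries, and it made up 96.1% of the mutant sum and 90.3% of the PoxKu70 sum of this end. With TPM scaling it was lower in the mutant past the threshold (log2 change -0.45; limma, adjusted p = 0.019), where all tested genes shifted by -0.35. Behind it 8 genes fell and 1 rose, and without POX_g09376 the mutant sum was 0.36 times that of PoxKu70. Most of the PoxKu70 sum without POX_g09376 was that of POX_g09366 and POX_g09359, with means of 475 and 362 FPKM there. POX_g09366 fell most, at 3.28, 2.49 and 2.82 FPKM in the mutant and at 511, 365 and 550.4 FPKM in PoxKu70 (log2 change -6.93, SE 0.18; limma, adjusted p = 7.6e-08). POX_g09359, the innermost of the 15, was at 18.9, 13.3 and 11.8 FPKM in the 3 mutant libraries, against 366, 377 and 343 FPKM in the 3 of PoxKu70 (log2 change -4.56, SE 0.18; limma, adjusted p = 5.5e-07). POX_g09362 was listed at 0 in all libraries except PoxKu70 replicate 3, where it was at 10.9 FPKM, and it passed the level threshold through that library alone.

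Both ends of chromosome I had more falls than rises. At I left (POX_a00001 to POX_a00019), 8 genes fell and 1 rose. The sum of all 15 genes came to 479 ± 84.6 FPKM in the mutant, against 862 ± 104 FPKM in PoxKu70 (SD, n = 3 each), 1.8-fold lower in the mutant and without overlap between the strains. The genes ranked 2 to 7, POX_a00002 to POX_a00009, all fell, and their sum was 195, 161 and 237 FPKM in mutant replicates 1 to 3, against 553, 511 and 683 FPKM in PoxKu70 replicates 1 to 3. POX_a00006 fell most, at 10.2, 8.02 and 10.6 FPKM in the mutant and at 165, 133 and 215 FPKM in PoxKu70 (log2 change -4.003, SE 0.20; limma, adjusted p = 1.8e-06). POX_a00002, the most abundant there in PoxKu70, was at 151, 129 and 196 FPKM in the 3 mutant libraries, against 316, 306 and 377 FPKM in the 3 of PoxKu70 (log2 change -1.08, SE 0.18; limma, adjusted p = 0.0012). The outermost gene, POX_a00001, was the exception, at 127, 166 and 232 FPKM in the mutant and at 123, 100.2 and 108 FPKM in PoxKu70 (log2 change 0.62, SE 0.22; limma, adjusted p = 0.036), and it missed the threshold without mutant replicate 2, mutant replicate 3, PoxKu70 replicate 2 or PoxKu70 replicate 3 (limma, adjusted p of 0.090, 0.079, 0.11 and 0.091) and with TPM scaling, the second TPM setting and quantile normalization (limma, adjusted p of 0.34, 0.19 and 0.12).

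At I right (POX_a01919 to POX_a01934), 10 genes fell and 4 rose, the highest count of changes of any end, while the summed level overlapped. The summed level of the end was 702 ± 26.2 FPKM in the mutant, against 802 ± 141 FPKM in PoxKu70 (SD, n = 3 each), 1.14-fold lower in the mutant and with overlap between the strains. The 5 adjoining genes from POX_a01927 to POX_a01931 fell together, with a sum of 12.1, 11.4 and 14.96 FPKM in mutant replicates 1 to 3, against 341, 189 and 377 FPKM in PoxKu70 replicates 1 to 3, a 23.5-fold lower mean in the mutant. POX_a01930 was the main part of it, at 2.86, 2.01 and 3.04 FPKM in the 3 mutant libraries, against 249, 124 and 282 FPKM in the 3 of PoxKu70 (log2 change -5.84, SE 0.30; limma, adjusted p = 2.2e-06). POX_a01931 missed the threshold without PoxKu70 replicate 1 (log2 change -0.77; limma, adjusted p = 0.076). POX_a01932, directly outside this run, rose instead, at 304, 373 and 418 FPKM in the mutant and at 133, 136 and 173 FPKM in PoxKu70 (log2 change 1.30, SE 0.17; limma, adjusted p = 0.00033), and it made up 52.0% of the mutant sum. The outermost gene, POX_a01934, was at 64.8, 28.5 and 62.5 FPKM in the 3 mutant libraries, against 129, 91.7 and 125 FPKM in the 3 of PoxKu70 (log2 change -1.21, SE 0.31; limma, adjusted p = 0.0099).

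Falls also prevailed at III right and VIII left. At III right (POX_c04763 to POX_c04785), 9 genes fell and 1 rose, and 9 of the 24 IDs there were under 1 FPKM. Together the 15 genes stood at 401 ± 36.3 FPKM in the mutant, against 470.4 ± 26.7 FPKM in PoxKu70 (SD, n = 3 each), 1.17-fold lower in the mutant and without overlap between the strains. The outermost gene, POX_c04785, was also the most abundant in PoxKu70, at 53.3, 39.8 and 42.5 FPKM in the mutant and at 126, 141 and 158 FPKM in PoxKu70 (log2 change -1.63, SE 0.15; limma, adjusted p = 6.5e-05). POX_c04767 changed most, at 1.74, 0.87 and 1.08 FPKM in the 3 mutant libraries, against 11, 11.6 and 10.4 FPKM in the 3 of PoxKu70 (log2 change -2.45, SE 0.20; limma, adjusted p = 3.2e-05). The only rise was that of POX_c04765, at 190.1, 227 and 243 FPKM in the mutant and at 147, 126 and 123 FPKM in PoxKu70 (log2 change 0.73, SE 0.14; limma, adjusted p = 0.0027), and with TPM scaling it did not pass the threshold (log2 change 0.35; limma, adjusted p = 0.058).

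At VIII left (POX_h09379 to POX_h09414), 6 genes fell, 1 rose and 8 did not pass the threshold. Summed, the 15 genes reached 677 ± 42.3 FPKM in the mutant, against 1393 ± 311 FPKM in PoxKu70 (SD, n = 3 each), 2.06-fold lower in the mutant and without overlap between the strains. The single rise was the outermost gene, POX_h09379, at 88.6, 129 and 148 FPKM in the 3 mutant libraries, against 35.8, 39.2 and 34.4 FPKM in the 3 of PoxKu70 (log2 change 1.68, SE 0.19; limma, adjusted p = 0.00018). POX_h09394 changed most, at 0.44, 0.18 and 0.82 FPKM in the mutant and at 11.5, 9.75 and 14.2 FPKM in PoxKu70 (log2 change -3.12, SE 0.24; limma, adjusted p = 2.1e-05). POX_h09389 was at 66.6, 46.2 and 36.2 FPKM in the mutant and 379, 333 and 273 FPKM in PoxKu70. A run of 4 falls went from POX_h09402 to POX_h09407. Its most abundant gene, POX_h09407, was uneven in PoxKu70, at 142, 95.7 and 115 FPKM in the 3 mutant libraries, against 516, 851 and 142 FPKM in the 3 of PoxKu70 (log2 change -1.76, SE 0.57; limma, adjusted p = 0.026), so that PoxKu70 replicate 3 overlapped with the mutant, and it missed the threshold without mutant replicate 2, mutant replicate 3, PoxKu70 replicate 1 or PoxKu70 replicate 2 (limma, adjusted p of 0.098, 0.082, 0.072 and 0.083) and with robust eBayes (limma, adjusted p = 0.071).

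The remaining 3 ends had changes in both directions. At IV right (POX_d06131 to POX_d06152), 7 genes fell and 5 rose. The sum of all 15 genes came to 385 ± 18 FPKM in the mutant, against 549 ± 89.7 FPKM in PoxKu70 (SD, n = 3 each), 1.42-fold lower in the mutant and without overlap between the strains. The outermost gene, POX_d06152, had the largest change, at 19.3, 9.82 and 10.2 FPKM in the mutant and at 98.9, 239 and 175 FPKM in PoxKu70 (log2 change -3.58, SE 0.35; limma, adjusted p = 7.8e-05). The run of 5 falls from POX_d06141 to POX_d06147 summed to 37.3, 37.9 and 45.0 FPKM in mutant replicates 1 to 3, against 153, 173 and 226 FPKM in PoxKu70 replicates 1 to 3. Next but one to it, the 4 adjoining genes from POX_d06136 to POX_d06139 rose. Of these, POX_d06138 was the most abundant gene of the end and rose least, at 157, 156 and 159 FPKM in the 3 mutant libraries, against 119.8, 136 and 108 FPKM in the 3 of PoxKu70 (log2 change 0.38, SE 0.13; limma, adjusted p = 0.033), and it missed the threshold with TPM scaling, the second TPM setting and quantile normalization (limma, adjusted p of 0.99, 0.44 and 0.17), when any library except PoxKu70 replicate 2 was left out (limma, adjusted p of 0.054 to 0.10) and with a replicate block (limma, adjusted p = 0.062). The gene between the blocks, POX_d06140, was at 25.6, 18.8 and 14.7 FPKM in the mutant and 16.2, 15.1 and 17.6 FPKM in PoxKu70, with overlap, and did not pass the threshold.

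At VI left (POX_f07332 to POX_f07377), the end richest in silent IDs, 5 genes fell and 3 rose. The summed level of the end was 185 ± 6.42 FPKM in the mutant, against 177 ± 29.7 FPKM in PoxKu70 (SD, n = 3 each), 1.05-fold higher in the mutant and with overlap between the strains. The direction of this small difference turned with TPM scaling (log2 ratio of the sums -0.31), with POX_a00166 and IDs of letter u left out of the TPM sum (-0.20) and without PoxKu70 replicate 2 (-0.067). POX_f07338 changed most, at 32.2, 42.7 and 62.7 FPKM in the mutant and at 0.11, 0.1 and 0.08 FPKM in PoxKu70 (log2 change 5.37, SE 0.24; limma, adjusted p = 1.1e-06). In PoxKu70 this gene was close to silent. The outermost gene, POX_f07332, was at 21.5, 20.6 and 32.5 FPKM in the 3 mutant libraries, against 48.8, 37.7 and 48.5 FPKM in the 3 of PoxKu70 (log2 change -0.85, SE 0.20; limma, adjusted p = 0.0065). POX_f07372 had the highest mean, at 81.8, 66.3 and 24.9 FPKM in the mutant and at 15.8, 14.7 and 10.7 FPKM in PoxKu70 (log2 change 1.85, SE 0.40; limma, adjusted p = 0.0044). POX_f07343 and POX_f07344 adjoin each other and fell, by 1.74 and 3.01 log2 units.

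At VIII right (POX_h09898 to POX_h09916), 5 genes rose and 5 fell. Together the 15 genes stood at 3177 ± 403 FPKM in the mutant, against 4447 ± 407 FPKM in PoxKu70 (SD, n = 3 each), 1.4-fold lower in the mutant and without overlap between the strains. The 4 adjoining genes from POX_h09904 to POX_h09907 rose, with a sum of 480, 495 and 410.5 FPKM in mutant replicates 1 to 3, against 183, 198 and 186 FPKM in PoxKu70 replicates 1 to 3. POX_h09906 rose most, at 243, 211 and 151 FPKM in the 3 mutant libraries, against 56.4, 53.5 and 40.5 FPKM in the 3 of PoxKu70 (log2 change 1.97, SE 0.21; limma, adjusted p = 0.00011). POX_h09904 at the inner edge missed the threshold without mutant replicate 1, mutant replicate 3, PoxKu70 replicate 1 or PoxKu70 replicate 2 (limma, adjusted p of 0.086, 0.091, 0.11 and 0.096), with TPM scaling (log2 change 0.31; limma, adjusted p = 0.23) and with the second TPM setting (log2 change 0.41; limma, adjusted p = 0.10). The 3 innermost genes, POX_h09898 to POX_h09900, fell by 1.15 to 1.51 log2 units. Of these, POX_h09900 was at 395, 313 and 417 FPKM in the mutant and 756, 908 and 1535 FPKM in PoxKu70. The lower sum of the end rested on POX_h09900 and POX_h09916. The latter made up 69.7% of the mutant sum and 68.9% of the PoxKu70 sum. The outermost gene, POX_h09916, was the most abundant of the end, at 1790.2, 2665 and 2185 FPKM in the mutant and at 3789.5, 3241 and 2158 FPKM in PoxKu70 (log2 change -0.45, SE 0.24; limma, adjusted p = 0.13). The strains overlapped. Without PoxKu70 replicate 3 it passed the threshold (log2 change -0.68; limma, adjusted p = 0.030), as it did with TPM scaling, the second TPM setting and quantile normalization (limma, adjusted p of 0.019, 0.043 and 0.021). This ID is among the 4 end genes, with POX_b01941, POX_c03482 and POX_d04790, that the reference table does not list.

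Of the 16 genes nearest to the chromosome ends, 10 changed (62.5%, beside 60.5% of all tested genes), shares near those of all tested genes in both directions. Among them, 5 rose (31.3%, beside 30.5%: POX_a00001, POX_b03476, POX_e06153, POX_e07331 and POX_h09379), 5 fell (31.3%, beside 30%: POX_a01934, POX_b01935, POX_c04785, POX_d06152 and POX_f07332) and 6 did not pass the threshold.

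Adjoining end genes often moved the same way. Among 224 pairs of neighbouring end genes, both had changed in 108, and 76 of these (70.4%) had changed in the same direction, where over all chromosomes it was 1958 of 3185 such pairs (61.5%). Runs of at least 4 neighbours called in the same direction numbered 9, at 8 of the 16 ends, 3 of rises and 6 of falls, and they held 44 of the 162 changed genes (27.2%). Counted the same way in 542 successive stretches of 15 expressed genes between the ends, there were 158 runs in 149 stretches (27.5%, beside 50% of the ends), with 15.8% of the changed genes. These shares are a description, with no test. End genes were also called more often than all tested genes (67.5%, beside 60.5%), with more falls (39.6%, beside 30%) and fewer rises (27.9%, beside 30.5%). The part of this in the pairs and runs was not tested. Of 17 alternative fits, the run POX_d06136 to POX_d06139 was whole in 8, POX_h09904 to POX_h09907 in 10, POX_g08535 to POX_g08540 and POX_h09402 to POX_h09407 in 12 each, and the other 5 in 15 to 17. Reads of overlapping neighbours, and of near-identical copies elsewhere in the genome, may have been split between genes. The labels do not say how reads were assigned, and the part of either in these values was not tested.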

How the data were processed

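RNA sequencing data of P. oxalicum mycelium were used, 3 libraries of the POX_a00954 mutant and 3 of PoxKu70. Per the labels' protocols, poly(A) RNA was enriched from Trizol extracts and made into circularised cDNA libraries by random priming; no strand-marking step is described. Reads were handled with bcl2fastq and HISAT2, per the submitters' processing notes. Counting tool and genome build: not given in the sources used here. Per the file headers, the values deposited by the authors are FPKM per gene, scaled by length and library total, so a very abundant gene lowers all others.

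On log2(FPKM + 1), limma 3.58.1 was run in R 4.3.3 (eBayes with trend, two-sided, genotype as the only term, all 6 libraries) over 8448 genes averaging 1 FPKM or more, with Benjamini-Hochberg adjustment over all of them and a threshold of 0.05. The pseudocount of 1 understates changes of low genes. Calls over the end genes, sums and runs are descriptions set beside the share of all tested genes. Fold values of sums are ratios of strain means, computed here (Python 3.11.15, pandas 2.3.3; figures with matplotlib 3.10.9). The files hold no counts, so no counting intervals are given.

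Letters a to h match chromosomes I to VIII of the RefSeq table (ASM172317v3) for the 9718 IDs it lists, and ID order follows gene order there for all end genes it lists. Whether the first and last IDs reach the telomeres is not known from the table. Since the files name no build, coordinates are left out.

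The end genes and all rules were chosen with earlier results of these data known. The text names, for each end, the outermost gene, the gene with the highest mean, the changed gene with the largest log2 change and no overlap between strains, and the edges of runs; other genes, mostly neighbours of these, were chosen after their values were seen. Replicate numbers 1 to 3 occur in both strains, and whether they pair the samples was checked. Alternatives were pseudocounts of 0.1 and 5, no filter or a minimum of 5 FPKM, 4 scalings between libraries, 2 other eBayes settings, a replicate block, leaving out each library, other numbers of genes per end, and runs of at least 3.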

Additional observations from a re-analysis of the deposited data

How the results depend on the processing

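Over 17 alternative fits, 136 to 172 end genes changed, and 96 to 133 changed by at least 1 log2 unit. The count of 136 is from a minimum mean of 5 FPKM, where 182 end genes were tested and 74.7% of these changed. As shares, 57.9% to 74.7% of the tested end genes changed, beside 51.1% to 65.9% of all tested genes. By at least 1 log2 unit, 40% to 56.0% changed, beside 22.5% to 33.3%. None of the 162 changed end genes passed the threshold with its sign turned in any of the 17 fits. Leaving out each library gave 139 to 160 changed end genes (57.9% to 66.7%, beside 51.1% to 60.5% of all tested genes). By at least 1 log2 unit, 45.8% to 51.3% changed, beside 26.9% to 31.6% of all tested genes. With 10, 20 or 30 genes per end the share changed by at least 1 log2 unit was 48.8%, 46.9% or 44.2%, and it was 49.4% among the 180 tested of the 15 outermost IDs whatever their level. With a minimum mean of 5 FPKM, III right had 6 changed genes, VI left had 5 and runs numbered 3, by construction, since 182 of the 240 genes were then tested. TPM scaling gave 11 changed genes at VIII left; the cause was not tested. Runs of at least 3 numbered 19, by construction, and leaving out each library gave 6 to 9 runs of at least 4 and 6 to 10 changed genes at IV left. POX_c03478, which passed no threshold, reversed to -0.18 with TPM scaling and -0.11 when POX_a00166 and IDs of letter u stayed out of the TPM sum, and lay between -0.017 and 0.18 on leaving out each library. POX_d04787, which also passed none, reversed to -0.18 and -0.096 under the same 2 scalings, which also lower the median of all genes. Samples sharing a replicate number were not treated as pairs. Their deviations from the strain means had r of -0.064, -0.0029 and 0.15, and for 2 of 6 libraries the best match was the one of equal number. With so few libraries, these values cannot exclude pairing. A replicate block gave 166 changed end genes (69.2%, beside 60.4% of all tested genes), 159 of them among the 162. Depth limits values near or below 1 FPKM, more so in the mutant.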
